A study of Homo sapiens with 9 samples.

Results

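The messages of 45 core spliceosome proteins were followed in KOPTK1 cells, an established human line of T-cell acute lymphoblastic leukaemia, after knockdown of the RNA helicase DHX15 with and without added MYC. The genes were taken by function: the Sm proteins, the LSm2 to LSm8 proteins, the proteins of the U1, U2, U4/U6 and U5 snRNPs (small nuclear ribonucleoproteins), the factors that first read the branch point and the 3′ splice site, and the Prp19 complex, with helicases left out. All 45 stood among the 17637 genes of the count table, and all 45 passed the filter on low counts that left 15309 genes for testing. Polyadenylated RNA was sequenced in 3 groups of 3 libraries. The shDHX15+MYC cells carried a lentiviral hairpin against DHX15 together with the MYC coding region, the shDHX15 cells carried the hairpin alone, and the shcControl cells carried a control hairpin. The genotype label read WT in every library. All groups came from 1 line, the labels do not say whether libraries of a group came from separate cultures, and they mention no empty vector in place of MYC. The p-values therefore measure only the spread between these libraries, which may be technical.

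Introns are removed by the spliceosome, which is assembled from small nuclear RNAs and their proteins on each intron. A ring of 7 Sm proteins encircles the U1, U2, U4 and U5 RNAs, and a related ring of LSm2 to LSm8 binds the end of U6. The U1 snRNP reads the 5′ splice site, SF1 and the U2AF proteins read the branch point and the 3′ splice site, the U2 snRNP then takes the branch point, and the U4/U6.U5 tri-snRNP and the Prp19 complex join to form the active enzyme. DHX15 takes apart the lariat complex that is left after splicing. MYC is a transcription factor, known from mouse lymphoma to raise the messages of core splicing proteins and of the methyltransferase PRMT5 that modifies Sm proteins.

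Total counts per library ran from 42134302 to 59688062. DHX15 stood at 195 ± 2.55 CPM in shDHX15+MYC cells, 167 ± 13.8 CPM in shDHX15 cells and 280.3 ± 3.43 CPM in shcControl cells (CPM are counts scaled to a common library size with trimmed mean of M values, TMM, factors, given as mean ± SD, n = 3). The DHX15 message was thus lower in both DHX15 hairpin groups than in shcControl, and MYC stood at 7098 ± 153, 86.9 ± 3.78 and 109 ± 0.603 CPM in the same order of groups. DHX15 was higher in shDHX15+MYC than in shDHX15, by 0.23 ± 0.044 (SE) on the log2 scale without overlap (edgeR adjusted p = 0.000124). The comparison of shDHX15+MYC with shDHX15 thus also holds a difference in DHX15, whose part in the results was not tested. Replicate 1 of shDHX15 stood apart from its group, with chi-square values divided by their degrees of freedom of 18.03 and 17.08 when its counts were set against each of its group, and 4.45 between the remaining libraries. The summed CPM (here of total counts) of 10 T-cell markers ran from 1634 to 1656 in shDHX15+MYC, 2068 to 2124 in shDHX15 and 2387 to 2491 in shcControl libraries, and the pre-T-cell receptor gene PTCRA averaged 0.184, 2.23 and 2.26 CPM. CD5, also of the T-cell list, averaged 164.6, 164.3 and 242.9 CPM in the same order. The T-cell sum was lowest in shDHX15+MYC and the other marker sums were highest there. The sum over the 4 B-cell markers in the table ran from 117 to 121, 45.1 to 47.4 and 47.3 to 49.0 CPM in the same order, most of it from CD79A. CD79B went the other way, with averages of 5.76, 9.52 and 11.6 CPM. The sum over 5 myeloid markers ran from 4.96 to 5.91, 0.222 to 0.576 and 0.375 to 0.803 CPM, with CSF1R and CD33 at 0 counts in shDHX15. The sum over 6 markers of adherent or packaging cells ran from 40.6 to 41.3, 13.7 to 14.5 and 17.7 to 18.9 CPM, with COL1A2 at 0 counts in shcControl. The part of these markers in the results below was not tested, and in bulk RNA fewer cells of a type cannot be told apart from less RNA per cell.

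After DHX15 knockdown, 23 of the 45 members fell and 7 rose, and the changes were small. The edgeR quasi-likelihood test called 23.0% of all genes tested lower and 22.0% higher in the same comparison, at an adjusted p under 0.05. The median log2 fold change of shDHX15 over shcControl was -0.13 for the members and -0.0047 for all genes tested. Of the 30 called members, 20 changed by less than 1.25-fold and 29 by less than 1.5-fold, and none reached 2-fold, as 0.849% of all genes did upwards and 2.16% downwards. The groups did not overlap for 34 of the 45 members, against 51.1% of all genes tested. All 7 Sm genes were called lower, and 6 with total-count scaling, where SNRPD1 lost its call. The lowest member was LSM7 at -0.62, followed by EFTUD2 at -0.52 and SNRPD2 at -0.50, and the highest was SF3B1 at 0.30. The count depended on scaling and on replicate 1 of shDHX15. With total counts in place of TMM factors, which raised the median of all genes by 0.066, 13 members were called higher and 17 lower, and without replicate 1 of shDHX15 11 were called higher and 25 lower. Of the 15309 genes tested, total-count scaling called 4576 higher and 2568 lower. Relative to the median of all genes, which a change of scaling moves together with every member, 15 members lay above and 30 below, and with DESeq2, which kept other genes, 16 and 29.

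With MYC added to the knockdown, 31 members rose and 11 fell relative to shDHX15. In that comparison the edgeR test called 42.1% of all genes higher and 42.6% lower. The median log2 fold change of shDHX15+MYC over shDHX15 was 0.42 for the members and 0.0058 for all genes. The groups did not overlap for 42 members, against 85.0% of all genes tested. BCAS2, SF3B4 and SF3A3 rose by more than 2-fold, and U2AF1, whose counts are shared with a near-identical copy, and LSM4 fell by more than 2-fold. Over all genes, 21.7% were called at least 2-fold higher and 14.7% at least 2-fold lower. The 3 members not called were SNRPD1, LSM7 and SART1. With total-count scaling, which raised the median of all genes by 0.20, 35 members were called higher and 9 lower. The same scaling called 7679 of the 15309 genes tested higher and 5348 lower. Relative to the median of all genes 32 members lay above and 13 below. A difference in how the shDHX15+MYC libraries were made or counted cannot be told apart from added MYC in these comparisons.

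Relative to shcControl, 26 members were higher in shDHX15+MYC and 12 were lower. The edgeR test called 42.0% of all genes higher and 42.5% lower in this comparison, and the median was 0.22 for the members against 0.017 for all genes. At least 2-fold higher were 3 members (21.3% of all genes) and at least 2-fold lower 4 (14.5%). The groups did not overlap for 41 members, against 87.2% of all genes. Total-count scaling raised the median of all genes by 0.27 and gave 35 members higher and 8 lower, beside 8128 and 4893 of the 15309 genes tested. Both comparisons with shcControl share the control libraries, so their calls are given only side by side, and they hold for TMM factors. The share of all genes with each pair of calls was not counted, so the counts below do not set the members apart. Called lower in shDHX15 and higher in shDHX15+MYC were 12 members: SNRPB, SNRPE, LSM3, SNRPC, U2AF2, SF3A1, SF3A3, PHF5A, PRPF3, PRPF31, PRPF8 and PRPF19. Called lower in both were 7: SNRPD1, SNRPD2, SNRPD3, LSM2, LSM7, U2AF1 and SF3B5. Called higher in both were SNRNP70, SF1, SNRPA1, CDC5L and CRNKL1. SNRPF, SNRPG, LSM5 and EFTUD2 were called lower in shDHX15 but not in shDHX15+MYC, which does not show that they returned to the control level. LSM8 was called higher in shDHX15 and lower in shDHX15+MYC, and SF3B1 only in shDHX15, where it was higher. SNRPB2, SF3A2, SF3B3, SF3B4, PRPF4, PRPF6, SNRNP40, PLRG1 and BCAS2 were called only in shDHX15+MYC, all higher, as were LSM4, SNRPA, SF3B2 and SNRNP27, all lower, and each of these 13 was also called in the same direction against shDHX15. LSM6 and SART1 were called in neither. Some of these calls were close to the threshold. That of PHF5A in shDHX15+MYC was lost in 6 of 13 alternatives, each library of shDHX15+MYC and shcControl replicates 1 and 2 among those whose removal did so (edgeR adjusted p from 7.22e-07 to 0.162 over all 13). With total-count scaling 20 of the 45 members had another pair of calls than with TMM factors, against 4 with relative log expression factors and 4 with DESeq2. In shDHX15+MYC it called higher SNRPD1 (0.11), SNRPF (0.15) and SF3B2 (0.17), and also SNRPG (0.34), LSM5 (0.38), LSM6 (0.41), SART1 (0.31), SF3B1 (0.30) and EFTUD2 (0.31), and SNRPA and SNRNP27 were no longer called. In shDHX15 it called LSM4, SNRPA, SNRNP27, SF3A2, SF3B3 and PLRG1 higher, so that these were no longer called only with MYC, and LSM2, U2AF1, PRPF3, PRPF8, SF3A1 and SNRPD1 lost their calls. With relative log expression factors and with DESeq2, LSM5, LSM6 and SF3B1 were called higher in shDHX15+MYC and SF3B2 was not called. LSM6 was also called there in a fit of only the 2 groups compared (0.16, edgeR adjusted p = 0.00797, from 2.75e-05 to 0.285 over 13 alternatives), and SF3A2 was called higher in shDHX15 with no filter on low counts (0.11). SNRPF stood at -0.12 in shDHX15+MYC with TMM factors and was not called. It was called lower there with no filter on low counts (-0.13) and in the fit of only the 2 groups compared (-0.11). SNRPG (0.078) and LSM5 (0.12) were called higher in that last fit. In shDHX15 the call of SNRPA1 was lost without shcControl replicate 1 or 2, that of SF3A1 without shcControl replicate 2 and that of SF1 without shDHX15 replicate 2.

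**Figure D1:**
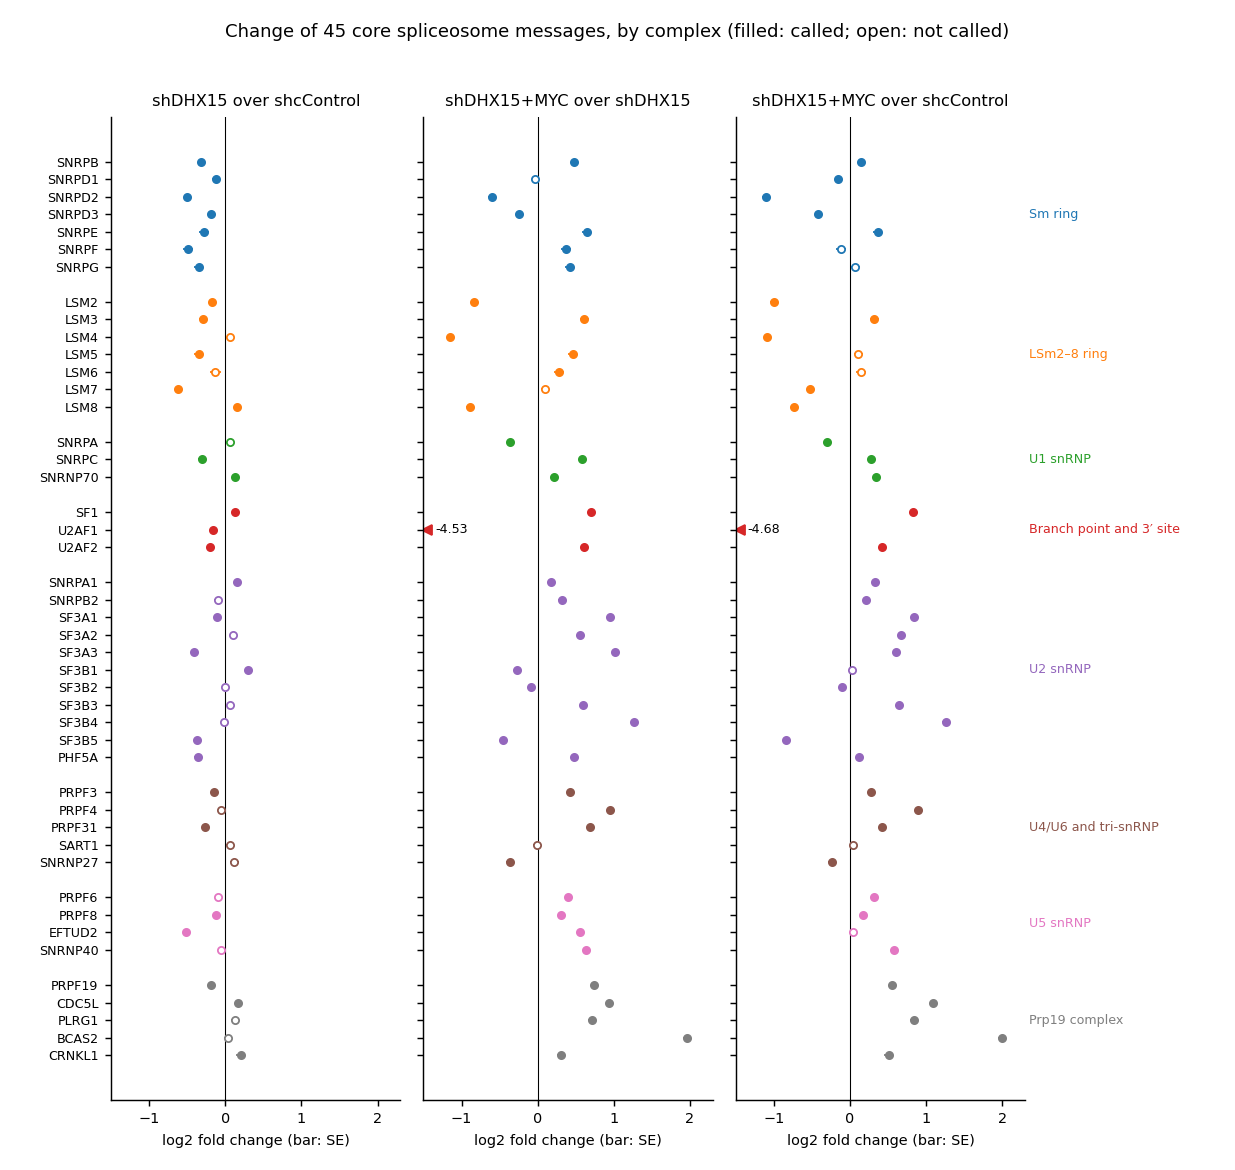
Log2 fold change of each of the 45 members in the 3 comparisons, by complex, from the edgeR fit (points: estimate, bars: SE, filled: adjusted p under 0.05, open: not called). The Sm genes all lie left of 0 after knockdown, the U5 and Prp19 genes all lie right of 0 in shDHX15+MYC against shDHX15, and U2AF1 lies beyond the axis, at -4.53 and -4.68, and is drawn as an arrow.

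Summed over the 45 genes, the level was 7226, 7247 and 7412 CPM in the shDHX15+MYC libraries, against 5928, 5975 and 5966 CPM in shDHX15 and 6238, 6287 and 6291 CPM in shcControl. The 3 groups did not overlap. The sum was highest in shDHX15+MYC and lowest in shDHX15. Scaled by total counts alone it was 8069, 8072 and 8214 CPM in shDHX15+MYC, against 5758, 5787 and 5785 in shDHX15 and 5779, 5832 and 5816 in shcControl, where the last 2 groups overlapped. The sum is weighted towards abundant messages, of which PRPF8 alone gave 711 ± 15.2, 577 ± 21.9 and 630.2 ± 8.95 CPM in the 3 groups.

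The Sm ring genes fell in the knockdown and split when MYC was added. All 7 were lower in shDHX15 than in shcControl, from -0.13 for SNRPD1 to -0.50 for SNRPD2 on the log2 scale, and no group overlapped. In that comparison 23.0% of all genes tested were called lower, and the groups did not overlap for 51.1%. Against shDHX15, the shDHX15+MYC cells had more SNRPB, SNRPE, SNRPF and SNRPG and less SNRPD2 and SNRPD3, and SNRPD1 was not called (-0.03 ± 0.040, 95% interval -0.11 to 0.055). With total-count scaling 5 of the 7 were called higher and SNRPD2 alone lower, since SNRPD1 turned to 0.17 and SNRPD3 lost its call (edgeR adjusted p = 0.330, from 6.44e-07 to 0.330 over 13 alternatives). The SNRPD1 call in the knockdown was also lost without shDHX15 replicate 3 and in a fit of only the 2 groups compared. SNRPE, which pairs with SmF and SmG in the ring, had 66.0, 67.9 and 69.8 CPM in shDHX15+MYC, against 48.9, 39.5 and 42.1 CPM in shDHX15 and 54.1, 50.6 and 53.8 CPM in shcControl. It was highest in every shDHX15+MYC library, with a log2 fold change of 0.64 ± 0.061 (SE) over shDHX15 (edgeR adjusted p = 2.56e-08). SNRPD2, which pairs with SmD1, had 92.0, 88.0 and 93.1 CPM in shDHX15+MYC, against 152, 128 and 135 CPM in shDHX15 and 199, 191 and 195 CPM in shcControl. Its 3 groups did not overlap, and each was lower than the next: the log2 fold change was -0.50 ± 0.049 for shDHX15 over shcControl (edgeR adjusted p = 3.92e-07) and -0.60 ± 0.050 for shDHX15+MYC over shDHX15 (edgeR adjusted p = 3.95e-09). As a percentage of the shcControl mean, the 7 Sm genes lay between 46.6% for SNRPD2 and 128% for SNRPE in shDHX15+MYC, and between 70.8% for SNRPD2 and 91.5% for SNRPD1 in shDHX15. Replicate 1, the shDHX15 library that stood apart, was the highest of its group for 7 of 7 Sm genes, and for 24 of all 45 members. Without it all 7 Sm genes were still called lower than in shcControl, from -0.17 to -0.58.

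SNRPB is shown with its paralog SNRPN, which encodes the closely related SmN and is best known from brain. SNRPB had 369.7, 386 and 392 CPM in shDHX15+MYC, 282, 266 and 279.9 CPM in shDHX15 and 342, 351 and 344 CPM in shcControl. SNRPN averaged 108 ± 1.70, 164 ± 9.04 and 168 ± 0.964 CPM in the same groups. It fell with MYC, by -0.60 ± 0.038 on the log2 scale against shDHX15 (edgeR adjusted p = 8.28e-11), where SNRPB rose by 0.47 ± 0.032 (edgeR adjusted p = 2.43e-10). Per kilobase of annotated exon, SNRPN made up 9.41% of the level of both in shDHX15+MYC, 17.9% in shDHX15 and 15.1% in shcControl.

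The LSm2 to LSm8 ring did not move as 1 unit. In the knockdown LSM2, LSM3, LSM5 and LSM7 fell and LSM8 rose, while LSM4 (0.07 ± 0.032) and LSM6 (-0.13 ± 0.068) were not called. In shDHX15+MYC, LSM3, LSM5 and LSM6 were higher than in shDHX15, and LSM2, LSM4 and LSM8 were lower. LSM8 is the subunit that sets this nuclear ring apart from the cytoplasmic LSm1 to LSm7 ring of messenger RNA decay. It had 36.0, 35.3 and 37.5 CPM in shDHX15+MYC, 68.4, 65.6 and 68.2 CPM in shDHX15 and 58.3, 62.1 and 60.7 CPM in shcControl, so that the groups did not overlap in any comparison. LSM4, whose tail is rich in arginine and glycine, had 125, 122 and 128 CPM in shDHX15+MYC, against 272, 278 and 284 CPM in shDHX15 and 258, 265 and 272 CPM in shcControl. Every shDHX15+MYC library held less than any other, at -1.15 ± 0.033 on the log2 scale against shDHX15 (edgeR adjusted p = 1.46e-15). LSM3 had 64.5, 67.5 and 69.6 CPM in shDHX15+MYC, 48.5, 40.8 and 42.5 CPM in shDHX15 and 54.1, 52.9 and 54.3 CPM in shcControl, highest in shDHX15+MYC and lowest in shDHX15 with no overlap. LSM7 had 57.5, 55.5 and 59.6 CPM in shDHX15+MYC, 57.3, 52.1 and 52.3 CPM in shDHX15 and 81.5, 82.6 and 84.3 CPM in shcControl. It was low in both DHX15 hairpin groups, at -0.62 ± 0.045 for shDHX15 over shcControl (edgeR adjusted p = 1.37e-08), and the 2 DHX15 hairpin groups overlapped. LSM7 was called higher in shDHX15+MYC than in shDHX15 with relative log expression factors (0.13), total-count scaling (0.29) and DESeq2 (0.13), and without shDHX15+MYC replicate 2 or shDHX15 replicate 1. Summed over the ring, the level was 393 ± 8.81 CPM in shDHX15+MYC, 562 ± 7.13 CPM in shDHX15 and 599 ± 6.45 CPM in shcControl, lowest with MYC, whereas the Sm ring summed to 837 ± 21.4, 735 ± 43.4 and 928 ± 7.36 CPM. Each sum is weighted towards its most abundant message. In the same order of groups, LSM4 alone gave 125 ± 3.05, 278 ± 6.01 and 265 ± 6.97 CPM. SNRPB alone gave 383 ± 11.4, 276 ± 8.53 and 346 ± 4.36 CPM. Scaled by total counts the Sm sum turned against shcControl, at 909.7, 936 and 949.7 CPM in shDHX15+MYC, against 866, 854 and 858 in shcControl, while the LSm sum was still lowest with MYC, at 432 to 447 CPM against 549.1 to 559.8 in shcControl.

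**Figure D2:**
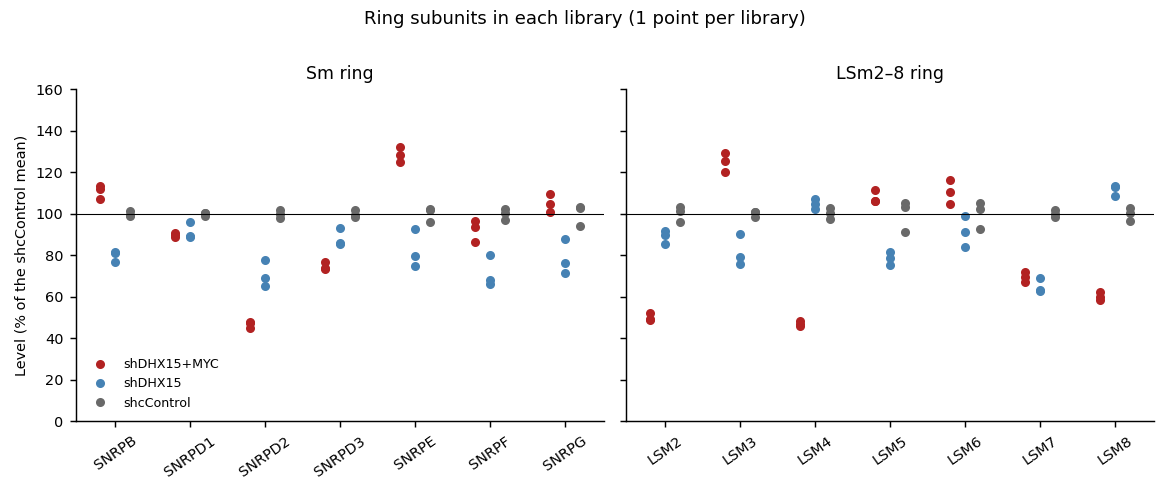
Level of each Sm and LSm2 to LSm8 gene in each library, as a percentage of its shcControl mean (1 point per library, line at the control mean). With MYC the subunits of 1 ring spread from 46.6% to 128% of control in the Sm ring and from 47.1% to 125% in the LSm ring.

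The proteins of each ring are present once per ring, and the messages were unequal in every group. Per kilobase of exon, SNRPB was the highest and SNRPD1 the lowest Sm gene in all 3 groups, at 332 and 13.7 CPM per kb in shDHX15+MYC, 239 and 14.0 CPM per kb in shDHX15 and 299.7 and 15.3 CPM per kb in shcControl. These lengths count every base of the gene that any transcript of the GENCODE basic set covers. Long minor transcripts in that set lower the value of their gene, so the order is only approximate.

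The U1 snRNP genes went different ways. SNRPC, whose protein stabilises pairing with the 5′ splice site, had 98.6, 102 and 106 CPM in shDHX15+MYC, 73.5, 63.2 and 67.4 CPM in shDHX15 and 84.4, 86.5 and 81.8 CPM in shcControl. It fell by 0.31 ± 0.049 on the log2 scale in the knockdown (edgeR adjusted p = 7.42e-05) and was 0.59 ± 0.049 higher in shDHX15+MYC than in shDHX15 (edgeR adjusted p = 3.78e-09). SNRPA, whose protein binds a stem-loop of U1 RNA, had 105, 105 and 106 CPM in shDHX15+MYC, against 129, 143 and 137 CPM in shDHX15 and 128, 132 and 130.3 CPM in shcControl. It was lower in all shDHX15+MYC libraries, while the other groups overlapped. SNRNP70, the U1-70K gene, was the most abundant of the 3 at 408 ± 3.87, 352 ± 14.6 and 322 ± 0.883 CPM, and was called higher in all 3 comparisons (0.13, 0.21 and 0.34 on the log2 scale for shDHX15 over shcControl, shDHX15+MYC over shDHX15 and shDHX15+MYC over shcControl).

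Of the factors that read the branch point and the 3′ splice site, SF1 and U2AF2 rose with MYC and U2AF1 had few counts. SF1, the branch point binding protein, had 509.7, 492 and 495 CPM in shDHX15+MYC, 289, 321 and 310.1 CPM in shDHX15 and 283, 278 and 283 CPM in shcControl. U2AF2, which binds the polypyrimidine tract, had 482, 481 and 505 CPM in shDHX15+MYC, 318, 323 and 318 CPM in shDHX15 and 364, 369 and 366 CPM in shcControl. Over shDHX15 the log2 fold changes of shDHX15+MYC were 0.70 ± 0.035 for SF1 (edgeR adjusted p = 2.68e-12) and 0.61 ± 0.029 for U2AF2 (edgeR adjusted p = 1.22e-12). U2AF2 fell in the knockdown (-0.20 ± 0.029) and SF1 rose (0.12 ± 0.035).

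U2AF1, which reads the AG of the 3′ splice site, was counted at 166, 191 and 157 reads in shDHX15+MYC, against 4114, 4802 and 3815 in shDHX15 and 4056, 3966 and 4439 in shcControl. The log2 fold change over shDHX15 was -4.53 ± 0.060. This value cannot be read as the level of U2AF1, because hg38 holds a near-identical copy, U2AF1L5, on the same chromosome. U2AF1 lies at chr21:43092956-43107587 and U2AF1L5 at chr21:6484623-6499261, both on the minus strand. Their annotated coding sequences of 720 bases have 0 differences, and 0.903 of the 100-base windows of U2AF1 transcripts are also found at another locus. The first 90 coding bases of each, spliced, from GRCh38 with the GENCODE v29 annotation, are shown because reads from them fit both genes equally well.
U2AF1: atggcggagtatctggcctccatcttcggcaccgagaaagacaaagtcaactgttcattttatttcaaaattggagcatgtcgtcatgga
U2AF1L5: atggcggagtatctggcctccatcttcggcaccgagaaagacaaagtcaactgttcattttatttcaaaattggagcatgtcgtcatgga

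U2AF1L5 was counted at 933, 1002 and 931 reads in shDHX15+MYC, 2632, 2996 and 2324 in shDHX15 and 1976, 1821 and 2173 in shcControl. U2AF1 took 15.2% ± 0.793 of the reads of both genes in shDHX15+MYC, 61.6% ± 0.580 in shDHX15 and 67.6% ± 0.778 in shcControl. Summed before the fit, both copies together had 23.7 ± 0.838, 135 ± 5.09 and 137 ± 3.49 CPM, a log2 fold change of -2.51 ± 0.043 for shDHX15+MYC over shDHX15 (edgeR adjusted p = 2.33e-18), and the difference between shDHX15 and shcControl, at -0.02 ± 0.038, was no longer called (edgeR adjusted p = 0.665, from 0.000466 to 0.665 over 13 alternatives). Across the table the loss ran with shared sequence: the 85 genes that share at least 0.8 of their windows with another locus had a median log2 fold change of -2.82 for shDHX15+MYC over shDHX15, against 0.037 for the 13213 genes that share none. In shDHX15 over shcControl the medians were 0.021 and -0.0043. How reads that fit several loci were counted is not given in the sources used here, and the part of that counting in the U2AF1 value was not tested. Of the other members, SNRPE shares 0.117 of its windows with another locus, SNRPA1 0.0815, SNRPG 0.0349 and PRPF3 0.0055, and the remaining 40 share none.

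**Figure D3:**
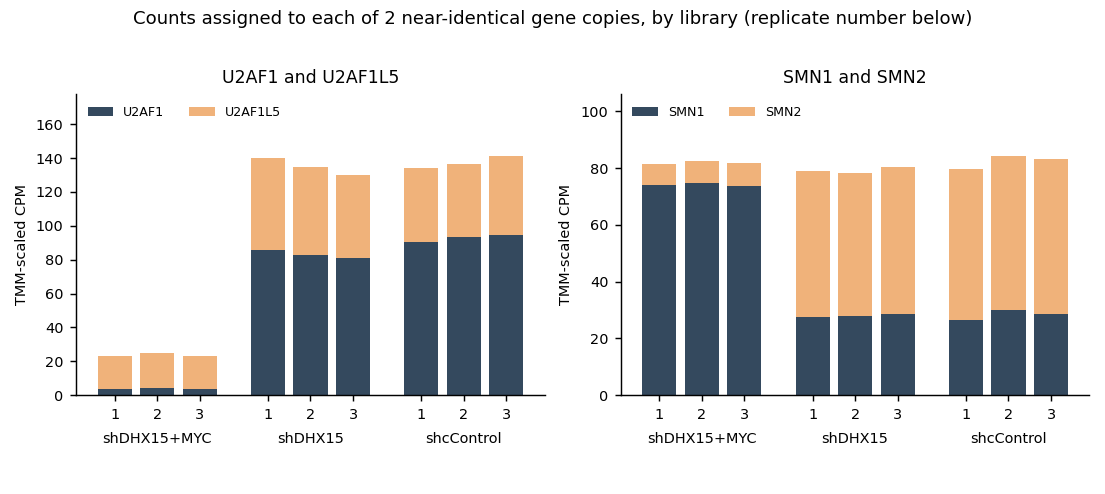
TMM-scaled CPM of each copy of U2AF1 and U2AF1L5 and of SMN1 and SMN2, in each library (bars, replicate number below). The 3 shDHX15+MYC libraries hold few reads for U2AF1 and U2AF1L5, and for SMN1 and SMN2 nearly all reads stand on SMN1 with the sum close to that in the other groups.

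The U2 snRNP genes rose with MYC except at SF3B1, SF3B2 and SF3B5. Of 11 genes, 8 were higher and 3 lower in shDHX15+MYC than in shDHX15, and in the knockdown 2 were called higher and 4 lower. Total-count scaling gave 9 higher and 2 lower with MYC, and 4 higher and 3 lower in the knockdown. With TMM factors, 42.1% of all genes tested were called higher and 42.6% lower with MYC, and 22.0% and 23.0% in the knockdown. SF3B4, a subunit that contacts RNA near the branch point, had 172, 173 and 170.4 CPM in shDHX15+MYC, 68.7, 76.3 and 68.3 CPM in shDHX15 and 70.7, 72.6 and 72.5 CPM in shcControl. It was not called between shDHX15 and shcControl (-0.02 ± 0.042, 95% interval -0.10 to 0.074) and was 2.41-fold higher with MYC than in shDHX15 (log2 1.27 ± 0.041, edgeR adjusted p = 7.78e-15). SF3A3, a subunit of the SF3a trimer, had 166, 165 and 178 CPM in shDHX15+MYC, 86.8, 82.3 and 83.1 CPM in shDHX15 and 110.0, 112 and 112 CPM in shcControl. It had the largest knockdown change of the U2 genes, -0.41 ± 0.038 (edgeR adjusted p = 1.98e-07), and was 2.02-fold higher in shDHX15+MYC than in shDHX15. Its partner SF3A1 was 1.93-fold higher and SF3A2 1.48-fold higher in the same comparison.

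Within SF3b, the small subunit SF3B5 had 64.8, 67.5 and 66.4 CPM in shDHX15+MYC, against 92.5, 89.4 and 91.0 CPM in shDHX15 and 119, 115 and 121 CPM in shcControl. It was lower at each step, by 0.38 ± 0.036 for shDHX15 relative to shcControl and by 0.46 ± 0.036 for shDHX15+MYC relative to shDHX15, with no overlap (edgeR adjusted p = 2.65e-07 and 2.03e-09). SF3B1, the scaffold of SF3b and a recurrent target of mutation in leukaemia, ran the other way in the knockdown. It averaged 426 ± 1.03 CPM in shDHX15+MYC, 512 ± 8.82 CPM in shDHX15 and 416 ± 7.74 CPM in shcControl, a log2 fold change of 0.30 ± 0.028 for shDHX15 over shcControl (edgeR adjusted p = 1.91e-07). Its shDHX15 libraries were all above those of the other groups, which overlapped. Between shDHX15+MYC and shcControl SF3B1 was called higher with relative log expression factors (0.071), DESeq2 (0.071) and total-count scaling (0.30). SF3B3 rose with MYC (411 ± 4.50, 273 ± 2.26 and 262 ± 4.75 CPM), as did PHF5A (53.9 ± 0.119, 38.6 ± 2.01 and 49.6 ± 1.93 CPM), while SF3B2 was lower by only 0.09 ± 0.030 against shDHX15. That SF3B2 call was lost with relative log expression factors (edgeR adjusted p = 0.107, from 2.19e-05 to 0.107 over 13 alternatives), with DESeq2 (-0.055) and without shDHX15 replicate 2. The direction turned with total-count scaling, to 0.11 ± 0.030.

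**Figure D4:**
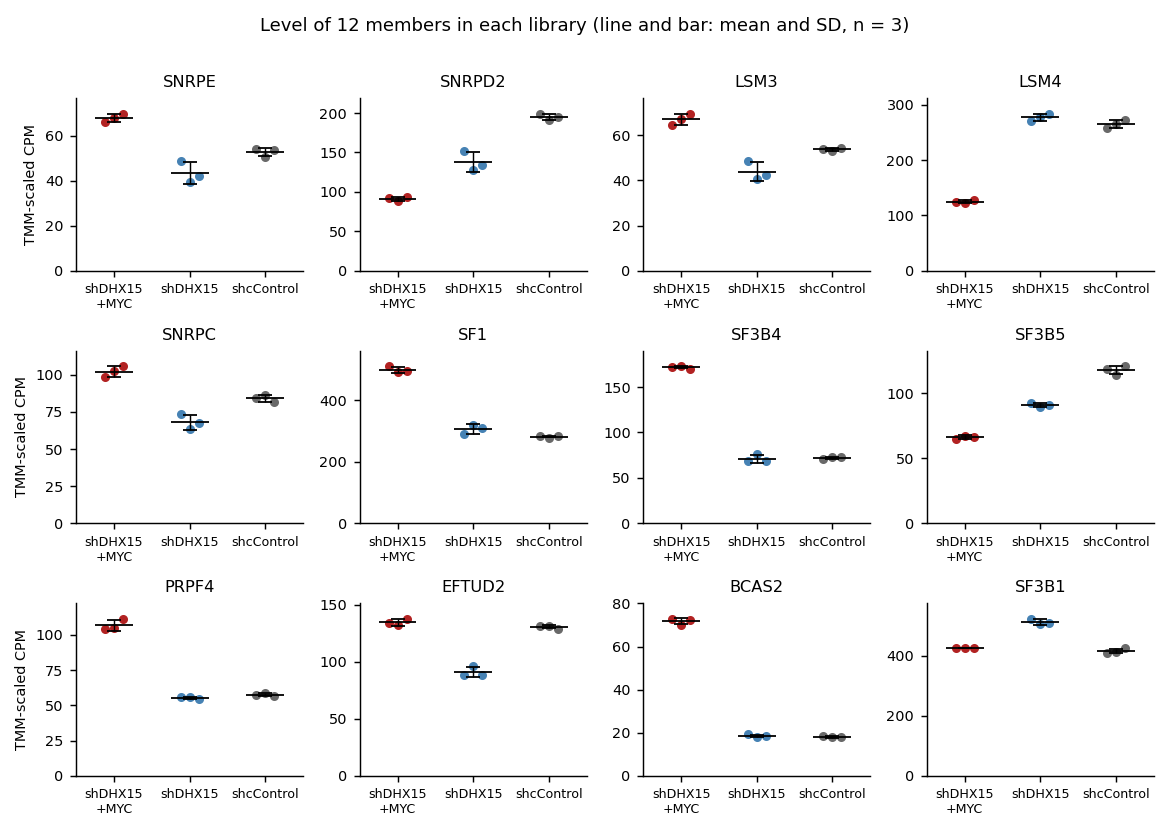
TMM-scaled CPM of 12 members in each library, in shDHX15+MYC, shDHX15 and shcControl cells (points: libraries, line and bar: mean and SD, n = 3). BCAS2, SF3B4 and PRPF4 are highest in the MYC libraries, SNRPD2 and SF3B5 are lowest in shDHX15+MYC with shDHX15 between it and shcControl, EFTUD2 is lowest and SF3B1 highest in shDHX15, and LSM4 is lowest with MYC.

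In the tri-snRNP, PRPF3, PRPF4 and PRPF31 rose with MYC and SNRNP27 fell. PRPF4, a partner of PRPF3 on the U4/U6 duplex, had 104, 105 and 111 CPM in shDHX15+MYC, 55.7, 55.8 and 54.8 CPM in shDHX15 and 57.2, 58.7 and 56.7 CPM in shcControl. It was 1.93-fold higher in shDHX15+MYC than in shDHX15 (log2 0.95 ± 0.039, edgeR adjusted p = 1.92e-13), and the knockdown itself gave -0.05 ± 0.040. PRPF31, which joins U4/U6 to U5 and is mutated in retinitis pigmentosa, had 90.9, 94.4 and 95.2 CPM in shDHX15+MYC, 58.2, 58.2 and 57.8 CPM in shDHX15 and 66.4, 70.4 and 72.8 CPM in shcControl. Its exons overlap those of TFPT on the opposite strand over 9.95% of their length, and TFPT moved the same way, by 0.82 against shDHX15, where PRPF31 moved by 0.69. Whether reads were counted by strand is not given in the sources used here. SNRNP27 had 34.0, 32.9 and 30.2 CPM in shDHX15+MYC, 42.2, 40.1 and 42.4 CPM in shDHX15 and 36.5, 38.2 and 39.9 CPM in shcControl, and shares 10.4% of its exon bases with MXD1. SART1 averaged 104 ± 3.09, 105 ± 9.16 and 101 ± 2.09 CPM, and its groups overlapped in all comparisons (95% interval of the log2 difference between shDHX15+MYC and shDHX15 from -0.12 to 0.095).

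All 4 U5 genes were higher in shDHX15+MYC than in shDHX15, from 0.30 for PRPF8 to 0.64 for SNRNP40. Of all genes tested, 42.1% were called higher in that comparison. EFTUD2, the GTPase of U5, had 134, 132 and 137 CPM in shDHX15+MYC, against 88.6, 96.2 and 88.6 CPM in shDHX15 and 131, 131 and 129 CPM in shcControl. It fell by 0.52 ± 0.037 in the knockdown (edgeR adjusted p = 1.23e-08), and in shDHX15+MYC its difference from shcControl was 0.04 ± 0.037 (95% interval -0.036 to 0.12), or 0.31 and called higher with total-count scaling (edgeR adjusted p = 4.92e-07, from 4.92e-07 to 0.625 over 13 alternatives). PRPF8, the large protein at the heart of the catalytic centre, had 699, 707 and 728 CPM in shDHX15+MYC, 552, 592 and 588 CPM in shDHX15 and 632, 638 and 620.3 CPM in shcControl. Its groups did not overlap, with the highest level in shDHX15+MYC and the lowest in shDHX15. SNRNP40 had 93.7, 96.5 and 98.8 CPM in shDHX15+MYC, 59.8, 65.5 and 60.4 CPM in shDHX15 and 62.3, 65.7 and 65.0 CPM in shcControl, high only where MYC was added.

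The Prp19 complex, which stabilises the activated spliceosome, rose in full with MYC: all 5 genes were higher in shDHX15+MYC than in shDHX15 and than in shcControl. Of all genes tested, 42.1% and 42.0% were called higher in these comparisons. The sum of the 5 genes was 559, 561 and 582 CPM in shDHX15+MYC, against 321, 314 and 310.3 CPM in shDHX15 and 326, 308 and 318 CPM in shcControl, where the last 2 groups overlapped. BCAS2, a small core subunit, had 72.8, 70.0 and 72.4 CPM in shDHX15+MYC, 19.1, 17.9 and 18.3 CPM in shDHX15 and 18.5, 17.7 and 17.8 CPM in shcControl. It had the highest fold change of the 45 members, 3.89-fold over shDHX15 (log2 1.96 ± 0.049, edgeR adjusted p = 2.66e-16), and the knockdown alone gave 0.03 ± 0.052. CDC5L rose 1.91-fold, PRPF19, the ubiquitin ligase, 1.67-fold and PLRG1 1.63-fold in the same comparison. CRNKL1 had 45.8, 45.4 and 43.2 CPM in shDHX15+MYC, 36.9, 34.7 and 37.3 CPM in shDHX15 and 31.9, 28.7 and 33.7 CPM in shcControl. It was higher by 0.20 ± 0.058 in shDHX15 than in shcControl (edgeR adjusted p = 0.00890, a call lost without shcControl replicate 2). In shDHX15+MYC it was 0.31 ± 0.057 higher than in shDHX15 (edgeR adjusted p = 9.26e-05). BCAS2 messages stood at 14.2 CPM per kb of exon in shDHX15 and PRPF19 at 66.5 CPM per kb, and in shDHX15+MYC they stood at 55.2 and 111 CPM per kb.

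The promoters of the members were searched for the E-box CACGTG, the preferred DNA word of MYC and its partner MAX, and for the related word CACGCG, on both strands and in the 300 bases from 250 before to 50 after the start site (RefSeq, GRCh38.p14). A promoter was listed for 40 of the 45 members. CACGTG was found in 2 of them, EFTUD2 and SF3B1, which is 5% of members against 12.2% of the 11421 tested genes with a promoter. CACGCG was found in 12, which is 30% against 21.3%. The 12 were LSM4, LSM7, LSM8, PLRG1, PRPF6, SF1, SF3A2, SF3B1, SNRNP70, SNRPA, SNRPB2 and U2AF1, members that rose and members that fell with MYC. The 150 bases before the start site are shown for BCAS2 and SF3B4, the members with the highest fold change with MYC, for LSM4, the lowest with no shared sequence, and for SF3B1, the only member with both words. All lie on the minus strand and are written 5′ to 3′ along the gene, with both words in capitals where they occur on either strand (CGCGTG is the second word read on the other strand). BCAS2 lies at chr1:114581616-114581765, SF3B4 at chr1:149927804-149927953, LSM4 at chr19:18323077-18323226 and SF3B1 at chr2:197435094-197435243.
BCAS2: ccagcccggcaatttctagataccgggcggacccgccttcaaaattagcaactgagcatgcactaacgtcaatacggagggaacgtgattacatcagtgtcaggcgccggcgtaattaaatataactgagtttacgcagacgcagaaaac
SF3B4: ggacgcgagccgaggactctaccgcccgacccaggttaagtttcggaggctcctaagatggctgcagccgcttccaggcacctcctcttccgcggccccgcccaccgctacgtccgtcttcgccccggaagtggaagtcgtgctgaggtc
LSM4: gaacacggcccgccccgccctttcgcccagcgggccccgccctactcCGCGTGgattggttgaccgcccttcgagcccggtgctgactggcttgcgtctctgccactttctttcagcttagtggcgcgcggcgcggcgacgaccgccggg
SF3B1: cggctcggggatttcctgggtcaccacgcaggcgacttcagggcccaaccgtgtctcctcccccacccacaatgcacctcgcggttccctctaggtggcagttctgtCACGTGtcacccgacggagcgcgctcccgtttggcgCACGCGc
BCAS2 and SF3B4, which rose by 1.96 and 1.27, hold neither word in this window. SF3B1, with both, fell by 0.27 against shDHX15 and was not called against shcControl with TMM factors (0.03). EFTUD2, with CACGTG alone, rose by 0.56 against shDHX15. Of the members with CACGCG, PLRG1 rose by 0.71 in that comparison, SF1 by 0.70, SF3A2 by 0.56, PRPF6 by 0.40, SNRPB2 by 0.32 and SNRNP70 by 0.21. LSM4 fell by 1.15, LSM8 by 0.89 and SNRPA by 0.37, LSM7 was not called, and U2AF1 shares its counts with a copy. No match says only that these letters are absent from the window searched, and a match is not a binding site.

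Members with little annotated exon sequence were lower in the knockdown than those with more. These lengths count every base that any transcript of the GENCODE basic set covers, and are not message lengths. By them SNRPD1 (4909 bases) and LSM8 (6210 bases) count as long. The 10 members with under 1500 bases of exon had a median log2 fold change of -0.32 for shDHX15 over shcControl and the 35 longer ones of -0.092. Over all genes with an annotated length the medians were -0.12 for the 1467 shorter genes and 0.0053 for the rest. Across members, length and the log2 fold change had a Spearman rho of 0.37, against 0.12 over 14580 genes, given as a description since the messages share the same libraries. For shDHX15+MYC over shDHX15 the rho was 0.23 over members and -0.0013 over all genes. The part of length in the low Sm and LSm values was not tested. Of the 45 members, 13 overlap an exon of another counted gene, and each such pair shares 0.353% to 12.7% of the member's exon bases. SNRPD3 and EFTUD2 have 2 such partners each.

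The genes that build, modify and complete these particles were read from a list of 80 other spliceosome genes, without helicases. In the knockdown 23 of them rose and 25 fell, which is 28.8% and 31.2% of the list against 22.0% and 23.0% of all genes tested, with a median log2 fold change of -0.018. In shDHX15+MYC 46 were higher and 25 lower than in shDHX15, which is 57.5% and 31.2% against 42.1% and 42.6% of all genes, with a median of 0.23. The 2 lowest in the knockdown belong to the methylosome, which loads and methylates Sm proteins. CLNS1A, its Sm-binding chaperone pICln, had 36.7, 38.1 and 38.9 CPM in shDHX15+MYC, against 68.2, 67.3 and 66.0 CPM in shDHX15 and 102, 102 and 100.3 CPM in shcControl. It was lower at each step without overlap, by 0.59 ± 0.038 for shDHX15 relative to shcControl (edgeR adjusted p = 2.53e-09) and by 0.83 ± 0.039 for shDHX15+MYC relative to shDHX15 (edgeR adjusted p = 1.53e-12). PRMT5, its methyltransferase, had 166, 168 and 166 CPM in shDHX15+MYC, against 57.8, 55.4 and 58.1 CPM in shDHX15 and 76.5, 75.3 and 75.1 CPM in shcControl. It fell by 0.41 ± 0.035 in the knockdown and was the highest of the 80 with MYC, at 1.55 ± 0.034 over shDHX15 (edgeR adjusted p = 6.07e-17). The highest in the knockdown were LUC7L3, a U1-associated protein, at 0.56 ± 0.039 and CWC27, a spliceosomal cyclophilin, at 0.55 ± 0.072.

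PHAX, the export adaptor of newly made snRNAs, averaged 45.6 ± 1.50 CPM in shDHX15+MYC, 19.5 ± 1.13 CPM in shDHX15 and 17.2 ± 0.426 CPM in shcControl. PRPF38B averaged 249.7 ± 3.41, 107 ± 2.55 and 89.4 ± 1.84 CPM in the same groups, and both rose with MYC by 1.22 on the log2 scale against shDHX15. LSM12, an LSm-domain protein outside the rings, averaged 12.2 ± 0.938, 47.8 ± 2.49 and 48.7 ± 2.06 CPM, but shares 0.275 of its windows with other loci. SMN1 and SMN2, near-identical genes of the SMN protein that assembles Sm rings, are read only as a sum for the same reason. The sum was 81.9 ± 0.465 CPM in shDHX15+MYC, 79.2 ± 0.944 CPM in shDHX15 and 82.5 ± 2.29 CPM in shcControl, while the share of reads given to SMN1 was 90.5%, 35.3% and 34.5%. Beside the 42.1% of all genes called higher and 42.6% called lower in shDHX15+MYC against shDHX15, all 4 exon junction complex genes were higher, and of the 8 minor spliceosome genes 1 was higher and 6 were lower (2 and 4 with total-count scaling). The other Sm and LSm genes, LSM12 and SNRPN among them, were lower in 6 of 7 cases and higher in 1 (5 and 1 with total-count scaling).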

How the data were processed

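Polyadenylated RNA of KOPTK1 cells was read from both ends for 150 bases, per the labels' protocols. According to the submitters' processing notes the tools were FastQC 0.11.9, HISAT2 2.2.1 and DESeq2 1.32.0, on the build hg38. How reads were assigned to genes (the program, its strand setting, the annotation, and reads that fit several loci) is not given in the sources used here. Unscaled whole-number read counts of 17637 genes, as the authors deposited them for 9 libraries, are the values analysed. Columns were matched to samples through their names: those named for MYC with a hairpin were taken as shDHX15+MYC, those named for a numbered hairpin alone as shDHX15, and those named for a GFP hairpin as shcControl.

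The members, the list of 80 other genes and the tests were chosen with earlier results of these data known. In each of 8 groups of members by role, library values are given for the genes with the highest and lowest log2 fold change with MYC and with the largest in the knockdown, and for U2AF1. Of the 80 others, the 2 highest and 2 lowest called genes of each comparison are named, and SNRPN. The library values of LSM8 and SNRPB, and the means of other members, were added after their values were seen. Genes kept by filterByExpr (15309) were fitted with edgeR 4.0.16 in R 4.3.3 by quasi-likelihood, with TMM factors and 1 mean per group over all 9 libraries. Adjusted p-values follow Benjamini and Hochberg over the 15309 genes, are 2-sided, and a gene is called under 0.05. Fold changes carry standard errors (SE). The steps were tested on simulated counts. Total counts ran from 42134302 to 59688062, so that 3 reads were worth 0.0503 to 0.0712 CPM, which is the upper limit for a gene with no reads and covers counting error only. Coordinates, exon lengths and shared 100-base windows (every 50 bases) come from GENCODE v29 on GRCh38, the assembly of hg38. Exon lengths are those of its basic set of transcripts, and exon overlaps were taken over all its transcripts. Of the symbols 95.1% matched GENCODE, and 26 read as dates. Promoters are from RefSeq, GRCh38.p14. Libraries with the same number did not deviate together (r from -0.0239 to 0.0412), so they were not paired. Alternatives were other scalings, no filter on low counts, DESeq2 1.42.0, a replicate block, a fit of only the 2 groups compared, leaving out each library, and, chosen after seeing the data, U2AF1 and U2AF1L5 as 1 feature.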

Additional observations from a re-analysis of the deposited data

How the results depend on the processing

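Of 1755 repeats of single-gene results under the alternatives, 1657 kept direction and call, 28 lost the call, 44 gained one and 26 changed sign. Member counts depended most on scaling and on replicate 1 of shDHX15. In shDHX15 against shcControl, total-count scaling gave 13 members higher and a median of -0.060, and leaving out 1 library gave 6 to 11 higher and medians from -0.14 to -0.12, the 11 without shDHX15 replicate 1. A fit of only the 2 groups compared gave a median of -0.11, and U2AF1 with U2AF1L5 as 1 feature gave -0.11. In shDHX15+MYC against shDHX15, the member median was 0.46 with relative log expression factors, 0.62 with total-count scaling, 0.46 with DESeq2 and 0.39 to 0.44 without 1 library. In shDHX15+MYC against shcControl it was 0.25 with relative log expression factors, 0.48 with total-count scaling, 0.20 with no filter on low counts, 0.25 with DESeq2 and 0.19 to 0.23 without 1 library. With the replicate block, 8 members were called higher and 23 lower in the knockdown, no count or median moved by over 1.5 times, 2 single-gene calls were gained (SF3A2 in shDHX15 and LSM6 in shDHX15+MYC, both higher than in shcControl), and the block changed no other call.

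The changes of sign were at small differences, and their cause was not tested except that total-count scaling raises all values alike. For shDHX15 over shcControl, total-count scaling gave 0.060 for SF3B2, 0.051 for SF3B4, 0.012 for PRPF4 and 0.011 for SNRNP40, a fit of only the 2 groups gave 0.013 for SF3B2 and 0.0037 for SF3B4, and leaving out 1 library gave -0.020 to 0.013 for SF3B2, -0.073 to 0.014 for SF3B4 and -0.0052 to 0.12 for SART1. For shDHX15+MYC over shDHX15, SNRPD1 was 0.0093 with relative log expression factors, 0.17 with total-count scaling and 0.0082 with DESeq2. SART1 was 0.028, 0.19 and 0.027 under the same settings, 0.00098 in a fit of only the 2 groups and -0.081 to 0.043 without 1 library, and SF3B2 was 0.11 with total-count scaling. For shDHX15+MYC over shcControl, total-count scaling gave 0.11 for SNRPD1, 0.15 for SNRPF, 0.17 for SF3B2 and 0.026 for SNRNP27. The lowest count of any member in any library was 157, for U2AF1 in shDHX15+MYC.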
